A study of Mus musculus with 16 samples.

Results

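The lysosomal cathepsins are the proteases that break down protein inside lysosomes. Their transcripts were examined in the cerebellum and hippocampus of aged mice that overexpress mutant Twinkle and of wild-type mice. The 10 genes Ctsa, Ctsb, Ctsc, Ctsd, Ctsf, Ctsh, Ctsk, Ctsl, Ctss and Ctsz were followed through every probe set whose single gene symbol is one of these names. That gave 22 of the 44904 probe sets analysed and 10 of 18168 genes. The probe sets were taken by symbol alone, but the 10 genes were chosen with earlier results of these data known. Ctsb was represented by 5 probe sets, Ctsc and Ctsz by 3 each, Ctsa, Ctsf, Ctsh and Ctsl by 2 each, and Ctsd, Ctsk and Ctss by 1 each.

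Twinkle is the helicase that unwinds mitochondrial DNA during its replication, and mice carrying its mutant form, known as deletor mice, serve as a model of progressive external ophthalmoplegia. There were 4 groups of 4 samples, namely mutant cerebellum, wild-type cerebellum, mutant hippocampus and wild-type hippocampus. In order of replicate number the wild types were 26, 24, 21 and 23 months old and the mutants 24, 24, 21 and 21, the same in both regions. The older samples (24 months or more) are therefore replicates 1 and 2 of each genotype and the younger ones replicates 3 and 4, so age cannot be told apart from anything else that replicates of one number had in common. The labels used here name neither the strain nor the transgene's promoter, and each sample is labelled a biological replicate.

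Cathepsins reach the lysosome as inactive precursors, mostly carried by mannose 6-phosphate receptors, and become active at acid pH. Among the products of the 10 genes, cathepsin D is an aspartic protease, cathepsin A a serine carboxypeptidase, and the rest are cysteine proteases. In brain, cathepsins D, B and L work in the lysosomes of neurons and glia, while cathepsin S is made mainly by microglia, the resident macrophages, where it also trims the invariant chain of MHC class II.

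Every deposited value is a log difference, taken as log2, from the median array of its region. No expression level is left, so genes are compared by their differences only, the regions cannot be set against each other in level, and the labelled tissue cannot be checked against the level of its markers. A difference of 1 is a factor of 2 if the base is 2, and the number of arrays limits the precision. Several samples stood apart. The cerebellar granule neuron markers averaged 2.30 in wild-type hippocampus replicate 1, 0.85 in mutant hippocampus replicate 1 and 0.25 in mutant hippocampus replicate 3, against -0.25 to -0.05 in the other hippocampus samples. Purkinje cell markers averaged 1.31 in wild-type and 0.39 in mutant hippocampus replicate 1, and -0.11 to 0.07 in the other hippocampus samples. The poly-A spike-in controls averaged 0.55 and 0.59 in mutant cerebellum replicates 2 and 4, against -0.20 to 0.05 in the other cerebellum samples. Age differences without these 3 and 2 samples are given with the results below.

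Age was compared first, 24 to 26 months against 21 to 23 months, with genotype in the model. Ctss, Ctsh and Ctsd lay higher in the older samples of both regions, by 0.22 to 0.57, and Ctsz and Ctsb did so in the hippocampus. None of the 10 cathepsins passed the threshold of 0.05 after Benjamini-Hochberg adjustment over all genes in limma, and neither did any other gene (0% in each region). In the cerebellum 764 genes and in the hippocampus 1190 had an unadjusted p under 0.05 in limma.

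Ctss encodes cathepsin S, an endopeptidase that stays active at neutral pH. In the older cerebellum samples its values were 0.13 and 0.09 in wild types and 0.27 and 0.31 in mutants, and in the younger ones -0.23 and -0.24 in wild types and -0.09 and -0.15 in mutants. Every older cerebellum sample lay above every younger one. Group means of 0.20 ± 0.10 and -0.18 ± 0.07 (SD, n = 4) gave an age difference of 0.38 with an SE of 0.07 (limma adjusted p = 0.51). By unadjusted p this was the 2nd smallest of 18168 genes. In the hippocampus the older wild types were at 0.43 and 0.24 and the older mutants at 0.03 and 0.23, while the younger wild types were at -0.14 and -0.13 and the younger mutants at -0.03 and -0.17. The age groups again did not overlap. The difference was 0.35 (SE 0.07, limma adjusted p = 0.12), the 19th smallest p of 18168 genes. It was 0.38 without the 3 hippocampus samples named above, and in the cerebellum 0.35 without the 2 samples with high spike-ins.

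Ctsh encodes cathepsin H, the aminopeptidase of the family. In the cerebellum the older wild types were at 0.14 and 0.03 and the older mutants at 0.17 and 0.47, against -0.36 and -0.17 in younger wild types and -0.13 and -0.04 in younger mutants. The groups did not overlap, although the lowest older and the highest younger sample lay close together. The difference was 0.38 (SE 0.13, limma adjusted p = 1.00), and 0.34 without the 2 samples with high spike-ins. In the hippocampus the older samples were at 0.72 and 0.15 in wild types and 0.54 and 0.07 in mutants, and the younger at -0.14 and -0.44 in wild types and -0.10 in both mutants. Replicate 1 of each genotype was the high sample here, and both are among the 3 samples with granule neuron markers. The hippocampal difference was 0.57 (SE 0.13, limma adjusted p = 0.27) with those samples and 0.33 (SE 0.12, limma adjusted p = 1.00) without them. Both Ctsh probe sets gave similar differences, 0.40 and 0.36 in the cerebellum and 0.54 and 0.59 in the hippocampus.

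Ctsd encodes cathepsin D, whose loss causes a neuronal ceroid lipofuscinosis. Its hippocampal values were 0.42 and 0.02 in older wild types, 0.10 in both older mutants, -0.25 and -0.23 in younger wild types, and -0.08 and -0.02 in younger mutants. The groups did not overlap, with wild-type replicate 2 and mutant replicate 4 at the edges of a narrow gap. The difference was 0.30 (SE 0.10, limma adjusted p = 0.60), and it was 0.19 without wild-type replicate 1 and 0.19 (SE 0.10) without the 3 samples. In the cerebellum the older samples ranged from -0.01 to 0.16 and the younger from -0.39 to 0.01. They overlapped, and the difference of 0.22 (SE 0.10, limma adjusted p = 1.00) was 0.14 without mutant replicate 4, the lowest sample, and 0.17 without the 2 samples with high spike-ins.

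Ctsz encodes cathepsin Z, a carboxypeptidase. In the hippocampus it was at 0.54 and 0.14 in older wild types and at 0.20 and -0.002 in older mutants, against -0.11 to -0.03 in the 4 younger samples. The difference of 0.28 (SE 0.10, limma adjusted p = 0.62) was 0.17 without wild-type replicate 1 and 0.15 without the 3 samples. Its 3 probe sets spanned 0.27 to 0.30. In the cerebellum the groups overlapped, with wild-type replicate 2 low at -0.12 among the older samples, and the difference was 0.17 (SE 0.10, limma adjusted p = 1.00), or 0.14 without the 2 samples.

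Ctsb encodes cathepsin B, an endopeptidase that also acts as a dipeptidyl carboxypeptidase. Its hippocampal values were small, 0.01 to 0.17 in the older and -0.05 to -0.04 in the younger samples. The groups did not overlap, and the difference was 0.12 (SE 0.05, limma adjusted p = 0.71), or 0.06 without the 3 samples. Of its 5 probe sets, 4 lay between 0.14 and 0.18 and the remaining one at -0.01, so the probe sets disagreed. In the cerebellum the difference was 0.04 (SE 0.05), and 0.01 without the 2 samples.

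**Figure D1:**
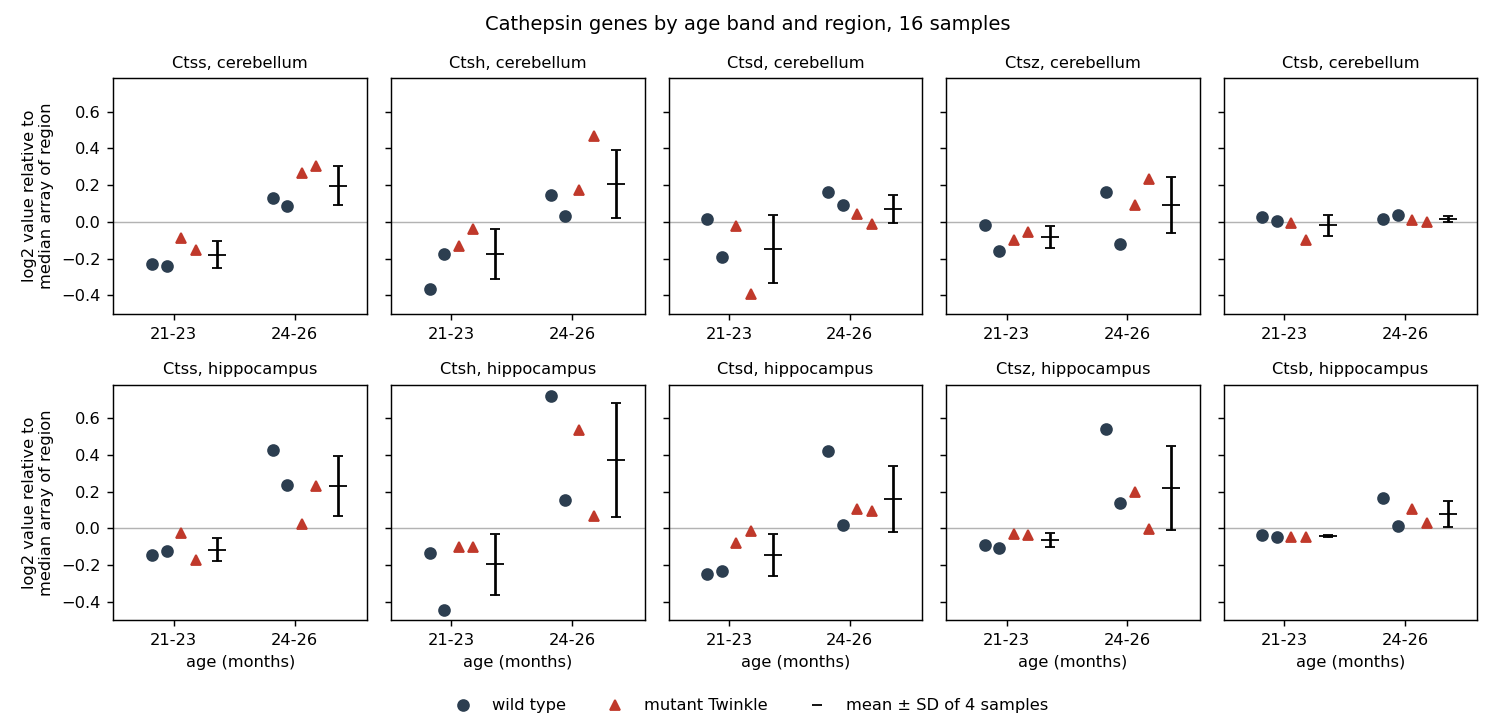
Values of Ctss, Ctsh, Ctsd, Ctsz and Ctsb (columns) in cerebellum (upper row) and hippocampus (lower row), as log2 differences from the median array of the region, against age in months. Each point is 1 sample, circles are wild type and triangles mutant, and the bars to the right of each group are the mean ± SD of 4 samples. In both regions all 4 older samples lie above all 4 younger ones for Ctss and Ctsh.

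Ctsk encodes cathepsin K, the collagen-degrading protease of osteoclasts. Its cerebellar groups did not overlap, at 0.02 to 0.27 against -0.30 to -0.02, with a difference of 0.23 (SE 0.12, limma adjusted p = 1.00), or 0.20 without the 2 samples. This was about as wide as the cerebellar difference of Ctsd. In the hippocampus it was high in mutant replicates 1 and 4, at 0.45 in each, and between -0.22 and 0.04 in the other 6 samples, so that both age groups held 1 high sample. The hippocampal difference was 0.10 (SE 0.12) and turned to -0.10 without the 3 samples. Mutant replicate 1 also had the highest mean of meningeal fibroblast markers, 1.08, and mutant replicate 4 the highest mean of choroid plexus markers, 1.94. Their part in the Ctsk values was not tested.

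Ctsc, which encodes the dipeptidyl peptidase that activates granule serine proteases, differed between age groups by 0.11 (SE 0.10) in the cerebellum and -0.04 (SE 0.10) in the hippocampus. The cerebellar value rested on mutant replicate 2, at 0.41, and was -0.008 without it and -0.04 without the 2 samples. Its 3 probe sets ranged from -0.22 to 0.16 in the hippocampus. Ctsl, which encodes an endopeptidase of most cell types, differed by 0.05 (SE 0.06) and 0.04 (SE 0.06). Without the 2 and 3 samples it was at 0.09 and -0.03. Ctsf, an endopeptidase whose human gene is also mutated in a ceroid lipofuscinosis, differed by 0.05 (SE 0.06) and 0.11 (SE 0.06), and without those samples by 0.09 and 0.05. Ctsa, whose product also protects beta-galactosidase and neuraminidase in a complex, differed by -0.001 (SE 0.05) and 0.05 (SE 0.05), and without those samples by -0.01 and 0.006. Ctsc in the hippocampus was at -0.03 without the 3 samples.

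Counted over the family, 9 of 10 differences were above 0 in each region, where 52.6% of all genes were above 0 in the cerebellum and 45.3% in the hippocampus. The median was 0.14 in the cerebellum and 0.11 in the hippocampus, against 0.005 and -0.009 over all genes. Older and younger samples did not overlap, with the older higher, for 3 of 10 members in the cerebellum (Ctsh, Ctsk and Ctss) against 1.49% of all genes. In the hippocampus this held for 5 of 10 (Ctsb, Ctsd, Ctsh, Ctss and Ctsz) against 1.78%. It held in both regions for 2 of 10, Ctsh and Ctss, against 0.275%. Samples of one number may come from the same animal in both regions, so the regions may not be independent. An unadjusted limma p under 0.05 with the older higher was found for 3 of 10 members in the cerebellum, where 2.39% of genes had one, and for 5 of 10 in the hippocampus, where 3.39% did.

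The counts were repeated without the samples that stood apart. Without the 3 hippocampus samples, 2 older and 3 younger were left, Ctsb, Ctsd, Ctsh, Ctss and Ctsz did not overlap, and 8.03% of all genes then did the same. There 7 of 10 differences were above 0, and an unadjusted p under 0.05 was left for 2 of the 10, where 1.89% of genes had one. Without the 2 cerebellum samples, 3 were left on each side, and Ctsd, Ctsh, Ctsk, Ctsl and Ctss did not overlap, against 4.17% of all genes. There 8 of 10 were above 0, and an unadjusted p under 0.05 was left for 2 of the 10, where 1.7% of genes had one.

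**Figure D2:**
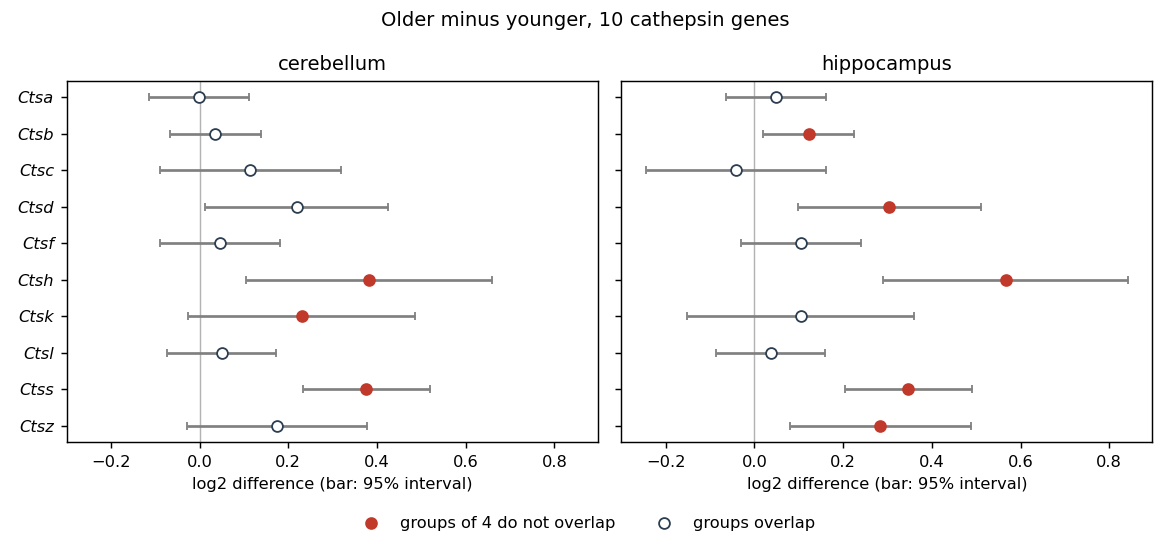
Difference between older and younger samples for each of the 10 cathepsin genes in cerebellum (left) and hippocampus (right), on the log2 scale, with the 95% interval of the limma fit. Filled points are genes whose groups of 4 samples do not overlap, 3 in the cerebellum and 5 in the hippocampus. The widest differences belong to Ctsh, at 0.38 and 0.57.

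The age differences were set against genotype and region. In the hippocampus the older samples exceeded the younger by 0.73 in wild types and 0.40 in mutants for Ctsh, by 0.47 and 0.23 for Ctss, by 0.46 and 0.15 for Ctsd, and by 0.44 and 0.13 for Ctsz. These 4 genes had the smaller difference in mutants. In both regions the oldest mutant sample was 24 months old and the oldest wild type 26, and the part of this in the differences was not tested. Ctsf and Ctsa had the larger difference in mutants. It was 0.02 in wild types and 0.19 in mutants for Ctsf, and 0.01 and 0.09 for Ctsa. For Ctsl it was 0.12 in wild types and -0.05 in mutants. Without wild-type replicate 1, the sample with granule neuron markers at 2.30, the wild-type differences were 0.44 for Ctsh, 0.37 for Ctss, 0.26 for Ctsd and 0.24 for Ctsz, with 1 older sample left. The genes of activated microglia, described below, moved with them, with 2 of 14 interactions of age and genotype above 0 and a median of -0.30. Over all genes 53.5% were above 0. Other lists moved too, with 0 of 13 choroid plexus markers above 0 (median -2.11), 2 of 13 oligodendrocyte and 3 of 13 astrocyte markers. Meningeal fibroblast markers went the other way, with 14 of 15 above 0 and a median of 0.58. The part of these lists in the cathepsin values was not tested. The interaction of age and genotype did not pass for any of the 10 cathepsins. It was nearest for Ctss, at -0.24 (SE 0.13, limma adjusted p = 0.96). In the cerebellum the age differences in wild types and mutants were 0.36 and 0.41 for Ctsh and 0.34 and 0.41 for Ctss. They were 0.22 in both genotypes for Ctsd, and 0.11 and 0.24 for Ctsz, the reverse of its order in the hippocampus. The interaction was above 0 for 3 of 10 cathepsins in the hippocampus and 7 of 10 in the cerebellum, against 53.5% and 48.8% of all genes. At an unadjusted p under 0.05 the interaction held for 0 of 10 members in either region, where 2.01% of genes in the cerebellum and 5.04% in the hippocampus had one. The difference of the age effect between regions lay between -0.16 and 0.18, with 0 of 10 members at an unadjusted p under 0.05 in limma, against 4.05% of all genes.

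Microglial markers also lay higher in the older samples. Of 24 measured microglial genes, 23 were above 0 for age in the cerebellum, with a median of 0.24, and 21 in the hippocampus, with a median of 0.17. None passed in limma, and 13 and 9 of the 24 had an unadjusted p under 0.05 with the older higher, against 2.39% and 3.39% of all genes. The list mean ranged from -0.05 to 0.31 in the older and from -0.17 to -0.06 in the younger cerebellum samples, with a narrow gap below older wild-type replicate 2 and no overlap. In the hippocampus it ranged from 0.01 to 0.20 in the older and from -0.10 to -0.07 in the younger samples, again with no overlap. The homeostatic markers P2ry12 and Tmem119 differed by 0.16 and -0.07 in the cerebellum and by -0.18 and 0.0002 in the hippocampus. The receptor genes Cx3cr1 and Csf1r differed by 0.30 and 0.12 in the cerebellum and by 0.15 and 0.11 in the hippocampus, and C1qa, a complement subunit made by microglia, differed by 0.51 and 0.52.

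Genes of activated microglia had wider differences. All 14 measured members were above 0 in the cerebellum, with a median of 0.36, and 13 of 14 in the hippocampus, with a median of 0.41. Cd68 and Cst7 are also on the lists of lysosomal membrane genes and cathepsin inhibitors described below, and the medians of the 12 other genes were 0.29 and 0.27. Lyz2, which encodes lysozyme, differed by 0.82 (SE 0.22) and 1.35 (SE 0.22), and the lectin receptor gene Clec7a by 0.54 (SE 0.17) and 0.97 (SE 0.17). Lpl on the same list was at 0.42 in the cerebellum and at -0.36 in the hippocampus, where it was the member below 0. The list mean was 0.13 to 0.27 in older and -0.26 to -0.10 in younger cerebellum samples. In the hippocampus it was 0.15 to 0.64 and -0.29 to -0.15. Neither region had an overlap. The part of these markers in the cathepsin differences was not tested, and in whole tissue more cells of a type cannot be told apart from more RNA per cell. Astrocyte markers were above 0 for 10 of 13 genes in the cerebellum and 12 of 13 in the hippocampus, with medians of 0.06 and 0.11. Of the 13, 2 and 5 had an unadjusted limma p under 0.05 with the older higher. The astrocyte list mean also did not overlap in the hippocampus, at 0.03 to 0.23 in older and -0.15 to 0.007 in younger samples. In the cerebellum it overlapped, at 0.02 to 0.07 and -0.11 to 0.03. The part of astrocyte markers in the cathepsin differences was not tested.

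Markers of other cell types were counted in the same way, and none of those given here passed in limma. Meningeal fibroblast markers were above 0 for 14 of 15 genes in the cerebellum, with a median of 0.15, and for 13 of 15 in the hippocampus, with a median of 0.30. In the cerebellum choroid plexus markers were above 0 for 13 of 13 genes and ependymal ones for 11 of 11, with medians of 0.25 and 0.21, whereas in the hippocampus 2 of 13 and 0 of 11 were, with medians of -0.16 and -0.27. Cerebellar granule neuron markers were above 0 for 8 of 9 genes in the hippocampus, with a median of 0.35. Purkinje cell markers were also above 0 for 8 of 9 there, with a median of 0.35. In the cerebellum 1 of 9 granule neuron and 3 of 9 Purkinje cell markers were above 0. The means of these lists overlapped between older and younger samples in both regions, and their part in the cathepsin differences was not tested.

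**Figure D3:**
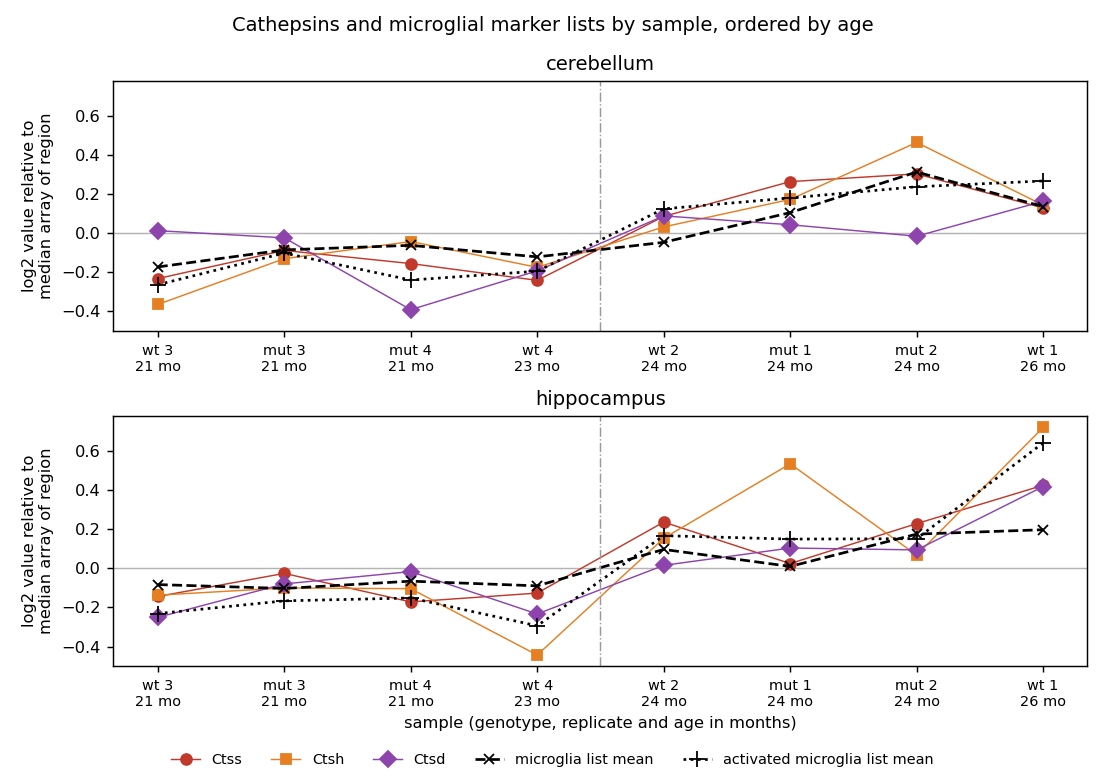
Values of Ctss, Ctsh and Ctsd and the means of the microglia and activated microglia marker lists in each sample of cerebellum (top) and hippocampus (bottom), on the log2 scale relative to the median array of the region. Samples are ordered by age, with the genotype (wt, wild type; mut, mutant), replicate and age in months below, and the vertical line separates younger from older samples. The activated microglia mean is below 0 in all 8 younger samples and above 0 in all 8 older ones.

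The genes most like the family were found by correlating each gene, centred within its region, with the mean of the 10 cathepsins over the 16 samples. The 5 highest were Lgals1, which encodes galectin-1 (r = 0.957), Cyba, a subunit of the phagocyte NADPH oxidase (r = 0.953), Tyrobp, the signalling adaptor of microglial receptors (r = 0.935), Lyz2 (r = 0.922) and Tgfbi, an extracellular matrix protein (r = 0.918). These values describe the 16 samples, which share arrays and age groups. Of the 5, Cyba, Tyrobp and Lyz2 belong to the marker lists above.

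Promoter sequences from RefSeq on build GRCm38.p6 were available for 8 of the 10 genes, all but Ctsb and Ctsh. They came in 9 windows, each from 250 bases before to 50 bases after an annotated start. Motifs for 2 factors were searched on both strands because the members that lay higher with age include a housekeeping lysosomal gene, Ctsd, and a microglial one, Ctss. CACGTG is the core of the element bound by TFEB, the regulator of lysosomal genes, and TCACGTGA is its longer form, which contains CACGTG. GAGGAAGT is bound by PU.1, the regulator of myeloid genes. CACGTG was present in 7.15% of 32851 promoter windows of the same length, TCACGTGA in 0.974% and GAGGAAGT in 3.2%. A match is a description of these letters and not evidence of binding.

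The Ctsd promoter held CACGTG at positions -245 to -240 and -98 to -93, counted from the start with no position 0, and the second match was part of TCACGTGA. Its 250 bases before the start are printed 5′ to 3′ on the minus strand, chr7:142387828-142388077, with CACGTG in capitals, since this is the member with 2 matches before its start.
Ctsd: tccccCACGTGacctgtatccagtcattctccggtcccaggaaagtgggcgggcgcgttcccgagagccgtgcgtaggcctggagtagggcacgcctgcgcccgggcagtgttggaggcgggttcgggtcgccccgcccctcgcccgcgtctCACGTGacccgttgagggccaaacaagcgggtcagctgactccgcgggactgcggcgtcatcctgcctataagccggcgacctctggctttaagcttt
Ctsa held TCACGTGA 2 times around the start of its second annotated window, and Ctsl and Ctsf held CACGTG once each. For each, 30 bases are printed with the matches in capitals. They lie at chr2:164833758-164833787 on the plus strand for Ctsa, chr13:64370739-64370768 on the minus strand for Ctsl and chr19:4855074-4855103 on the plus strand for Ctsf.
Ctsa: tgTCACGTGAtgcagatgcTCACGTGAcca
Ctsl: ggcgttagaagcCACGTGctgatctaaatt
Ctsf: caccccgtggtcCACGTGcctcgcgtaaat
GAGGAAGT was found as its reverse complement, ACTTCCTC, in Ctss from position -2 to 6 (chr3:95526773-95526802, plus strand) and in Ctsc from -151 to -144 (chr7:88277923-88277952, plus strand). Both are shown as 30 bases with the match in capitals, since Ctss lay higher with age in both regions and Ctsc did not in the hippocampus.
Ctss: aatgaaagttcACTTCCTCattgtggatgc
Ctsc: gtcactaactaACTTCCTCaggccacctcg
The windows of Ctsz and Ctsk held none of the motifs. Among the genes with CACGTG, the hippocampal age difference was 0.30 in Ctsd, 0.11 in Ctsf, 0.05 in Ctsa and 0.04 in Ctsl. Among those with GAGGAAGT it was 0.35 in Ctss and -0.04 in Ctsc. Without a match it was 0.28 in Ctsz and 0.10 in Ctsk. Ctsh, at 0.57, and Ctsb, at 0.12, had no promoter sequence here and are missing from this comparison. The part of the motifs in the age differences was not tested.

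Other genes were examined through 7 lists with 133 measured members of 145. The lists cover lysosomal enzymes, lysosomal membrane genes, the proton pump, sorting genes, regulators, cathepsin inhibitors and other cathepsins, so not all members act in the lysosome. For age, 77 of them were above 0 in the cerebellum, with a median of 0.02, and 68 in the hippocampus, with a median of 0.003. In each region 9 of 133, or 6.77%, had an unadjusted p under 0.05 with the older higher, against 2.39% and 3.39% of all genes, and 0 passed after adjustment in limma. Among 36 other lysosomal enzymes and activators, 23 and 21 were above 0, with medians of 0.04 and 0.009. Grn, which encodes progranulin, a lysosomal protein secreted by microglia and neurons, differed by 0.22 (SE 0.05) in the cerebellum and 0.27 (SE 0.05, limma adjusted p = 0.089) in the hippocampus. The beta-glucuronidase gene Gusb differed by 0.29 in the hippocampus and the alpha-mannosidase gene Man2b1 by 0.14 in the cerebellum.

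Of 21 lysosomal membrane genes, Cd68, the macrophage sialomucin, and Slc15a3, a peptide and histidine carrier, led in both regions. Cd68 differed by 0.72 and 0.79 (SE 0.12 in each, limma adjusted p = 0.51 and 0.056). Slc15a3 differed by 0.29 and 0.54 (SE 0.08 in each, limma adjusted p = 1.00 and 0.052). The latter was the smallest adjusted p of any gene for age. The 16 subunits of the proton pump that acidifies the lysosome had no unadjusted p under 0.05, with medians of 0.01 and -0.01 and Atp6v0e at 0.12 in the cerebellum. Of 18 sorting genes, the adaptors Gga1 and Gga3, which carry mannose 6-phosphate receptors from the Golgi, were at -0.15 and -0.16 in the cerebellum. Of 14 regulators of the lysosome, 7 were above 0 in each region and the medians were -0.002 and -0.0006.

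Of 14 measured cathepsin inhibitors, 7 were above 0 in the cerebellum and 8 in the hippocampus. Cst7, which encodes cystatin F, the cystatin of immune cells that acts inside lysosomes, was at 0.45 (SE 0.16) in the cerebellum and 0.77 (SE 0.16, limma adjusted p = 0.18) in the hippocampus, with no overlap of the age groups in either. Cst7 is also on the activated microglia list. Serpina3n, an inhibitor of serine proteases made by reactive astrocytes, was at 0.24 and 0.38. Cst3, which encodes cystatin C, the main secreted inhibitor in brain, was at 0.11 and 0.05, and Cstb, the cytosolic inhibitor cystatin B, at -0.02 and 0.16. Serpinb1a was lower in older hippocampus, at -0.29 (SE 0.10, limma adjusted p = 0.64).

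The list of other cathepsins held 14 measured genes, among them Ctse, Ctsg, Ctso, Ctsw and the placental cluster. It also held Tinagl1, whose symbol is not that of a cathepsin. For age, 9 of 14 were above 0 in each region, with medians of 0.02 and 0.02. Ctse, an aspartic protease of immune and gut cells, was at 0.14 (SE 0.13) and 0.24 (SE 0.13). Ctsw and Ctsg, proteases of lymphocytes and neutrophils, were at 0.04 and -0.07 and at -0.06 and -0.02. Ctso was at 0.02 and 0.01. The placental Ctsr was at -0.13 in each region, with an unadjusted limma p of 0.038 and 0.047.

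**Figure D4:**
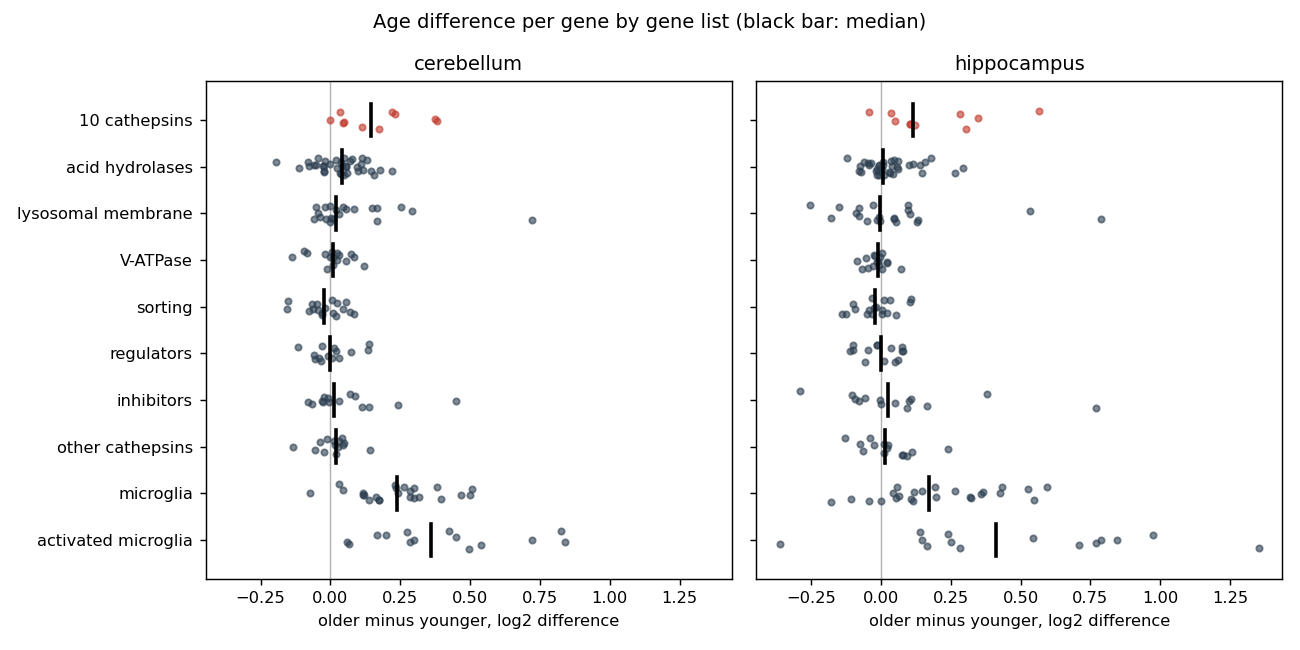
Age difference (older minus younger, log2 scale) of each measured gene, by list, in cerebellum (left) and hippocampus (right). Each point is 1 gene and the black bar is the list's median. The 10 cathepsins have medians of 0.14 and 0.11, the microglia list 0.24 and 0.17, and the activated microglia list 0.36 and 0.41.

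Genotype was the comparison the study was built on. In the cerebellum the groups overlapped for all 10 cathepsins, where 1.44% of all genes did not overlap with mutants higher and 1.02% with mutants lower, and 0 of 10 had an unadjusted p under 0.05 in limma, where 5.39% of all genes had one. The differences, mutant minus wild type, ran from -0.12 for Ctsd (SE 0.13) to 0.21 for Ctsh (SE 0.21), and 4 of 10 were above 0, against 53.6% of all genes. The 95% interval was -0.23 to 0.65 for Ctsh, -0.15 to 0.44 for Ctss and -0.39 to 0.16 for Ctsd, so each included differences in either direction at least as large as the estimate. Ctsd was lowest in mutant replicate 4, at -0.39, and its difference was -0.02 without that sample.

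In the hippocampus Ctsa was the member of smallest p. Its values were 0.15, 0.12, -0.02 and 0.11 in mutants and between -0.05 and -0.03 in wild types. The groups did not overlap, but mutant replicate 3 lay just above the wild types. Group means of 0.09 ± 0.08 and -0.03 ± 0.01 (SD, n = 4) gave a genotype difference of 0.13, with an SE of 0.05 and a 95% interval of 0.02 to 0.23 (limma adjusted p = 0.57). Ctsa was 1 of 10 members without overlap and higher in mutants, against 3.24% of all genes, with 0 of 10 lower in mutants, against 1.52%. It was also the 1 of 10 with an unadjusted p under 0.05, against 8.03%. Neither of its probe sets alone separated the genotypes, at 0.08 and 0.17. The effect of genotype on Ctsa was 0.19 higher in the hippocampus than in the cerebellum (SE 0.07, limma adjusted p = 0.87), the only member with an unadjusted p under 0.05 in that test, where 5.35% of genes had one.

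Ctsk was at 0.45, 0.04, -0.18 and 0.45 in mutant hippocampus and at -0.05, 0.02, -0.02 and -0.22 in wild types. The 2 high mutants are those named above for meningeal and choroid plexus markers, and the difference was 0.26 (SE 0.13, limma adjusted p = 0.61). The other 8 members lay between -0.09 and 0.09. Ctss was at -0.08 (SE 0.14) and Ctsz at -0.09 (SE 0.12), and both were slightly above 0, at 0.04 and 0.0006, without the 3 hippocampus samples. Without those samples, 2 mutants and 3 wild types were left, and Ctsa, Ctsc and Ctsk did not overlap, with the mutants higher, against 16.9% of all genes.

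**Figure D5:**
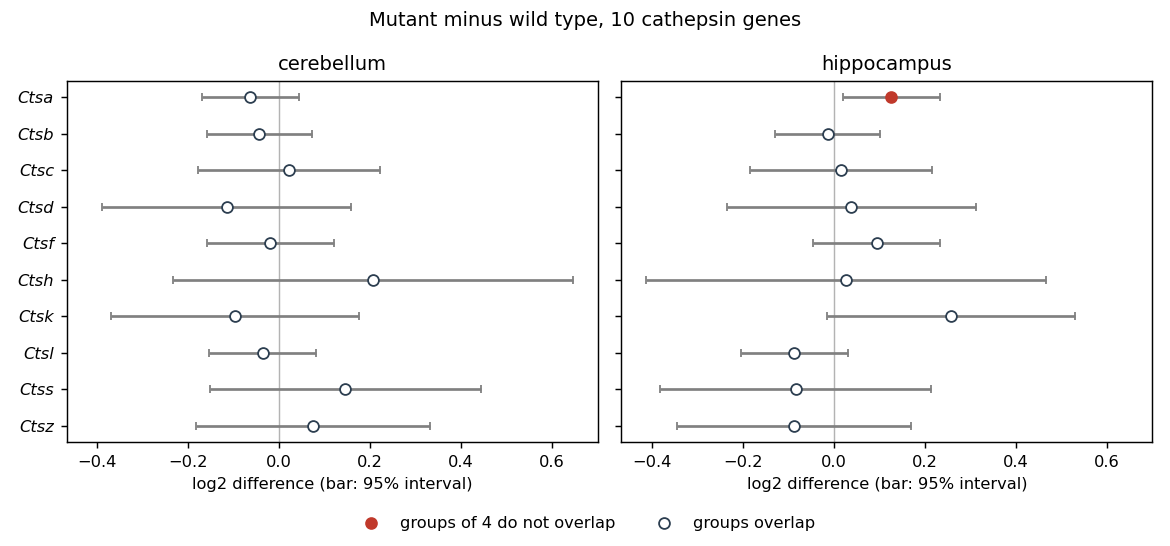
Difference between mutant and wild-type samples for each of the 10 cathepsin genes in cerebellum (left) and hippocampus (right), on the log2 scale, with the 95% interval of the limma fit. The filled point is Ctsa in the hippocampus, at 0.13, whose groups of 4 samples do not overlap.

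Other lysosomal enzymes were above 0 for genotype in 31 of 36 cases in the hippocampus, with a median of 0.07 against 0.02 over all genes and 58.9% of all genes above 0, and in 17 of 36 in the cerebellum, with a median of -0.003. None passed in limma, and 5 of 36 had an unadjusted p under 0.05 in the hippocampus, against 8.03% of all genes. Gaa, the acid alpha-glucosidase gene, was at 0.24 (SE 0.08) and Aga, the aspartylglucosaminidase gene, at 0.29 (SE 0.11) there. Among the inhibitors, Serpinb6a was at 0.25 (SE 0.07, limma adjusted p = 0.43) in the hippocampus and 0.03 in the cerebellum. On the list of other cathepsins, 7 of 14 genes were above 0 in the cerebellum and 10 of 14 in the hippocampus, against 53.6% and 58.9% of all genes. Ctso was at 0.11 (SE 0.05) in the hippocampus and Ctsq at 0.14 in each region. Tinagl1 and Ctsll3 were lower in mutant cerebellum, at -0.21 (SE 0.06) and -0.16 (SE 0.08), and at 0.12 and 0.09 in the hippocampus. Microglial markers were above 0 for 23 of 24 genes in the cerebellum, with a median of 0.11, and for 9 of 24 in the hippocampus, with a median of -0.02. Oligodendrocyte markers were above 0 for 12 of 13 genes and ependymal ones for 11 of 11 in the hippocampus, with medians of 0.15 and 0.37. Meningeal fibroblast markers were above 0 for 14 of 15 genes and choroid plexus ones for 12 of 13 there, with medians of 0.31 and 0.26. Their part in the values of the lysosomal genes was not tested.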

How the data were processed

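RNA of cerebellum and hippocampus was measured on 16 Affymetrix arrays. Per the labels' protocols, Trizol served for extraction and 5 ug of total RNA per sample was converted to biotinylated cRNA. The submitters' processing notes name GCOS 4.0. The values deposited by the authors are on a log scale, taken as log2, and the median over the 8 arrays of a region lies within 1e-05 of 0 for nearly every probe set. How probes were summarised, normalized and centred, and the log base, is not given in the sources used here. With base e, each difference would be multiplied by 1.44. Hippocampus samples carry cerebellum in their free-text description and hippocampus in title, source and tissue, and the latter was followed.

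Of 45101 probe sets, 64 controls and 133 with an empty value were left out. Genes were named from the GEO platform annotation, using probe sets with 1 symbol (34843, while 931 had several and 9130 none), and each gene's probe sets were averaged. All 16 arrays entered each fit of limma 3.58.1 (R 4.3.3), with 4 group means and 12 residual degrees of freedom for genotype, an older-against-younger term per region (10) for age, and 8 means of 2 arrays (8) for the interaction of age and genotype. Two-sided p-values were adjusted by Benjamini-Hochberg over 18168 genes, and 8 comparisons were fitted. The fits were tested on simulated data. Samples of one genotype and number have the same age in both regions, and the labels do not say whether they came from one animal. If they did, agreement between the regions is not independent repetition. The p-values refer to the spread between these samples, which may be technical. Correlations of same-numbered samples ran from -0.19 to 0.23, not every pair above 0.1, so numbers were not treated as pairs; the highest were 0.23 for hippocampus replicates 1 of both genotypes, 0.17 for wild-type replicates 4 and 0.13 for mutant replicates 1 of both regions. No 2 arrays of a group had matching values.

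Named genes were the 10 cathepsins, of each pathway list the 2 of smallest p per region for genotype and age, any inhibitor or other cathepsin, defining markers of cell types whose list moved with a member, and the 5 genes most like the family's mean. The members and lists were chosen with earlier results of these data known. Alternatives were another summary over probe sets, quantile normalization, subtracted array medians, array weights, robust eBayes, age terms, single-region fits, a replicate block and leaving out each array. Leaving out the samples that stood apart was added after seeing the data.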

Additional observations from a re-analysis of the deposited data

Results flagged for a closer look

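In 80 groups of 4 samples (10 genes, by genotype and by age within each region), 6 had 1 sample far from the other 3 by Dixon's test, and chance flags about 1 in 20. Mutant cerebellum replicate 4 was low for Ctsb, at -0.10 against -0.005 to 0.01, and for Ctsd, at -0.39 against -0.02 to 0.04. This sample also had high poly-A spike-ins, at 0.59, and the lowest mean of choroid plexus markers in the cerebellum, at -1.32. Wild-type cerebellum replicate 3 was low for Ctsf, at -0.17 against 0.05 to 0.06. Among the younger hippocampus samples, wild-type replicate 4 was low for Ctsh, at -0.44 against -0.14 to -0.10, and wild-type replicate 3 was apart for Ctsb by a very small amount, at -0.035 against -0.047 to -0.046. Mutant hippocampus replicate 1 was high for Ctsz, at 0.20 against -0.04 to -0.002, and is one of the samples with granule neuron and meningeal markers.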

How the results depend on the processing

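Over 428 values of single cathepsins under alternatives other than leaving out 1 array, 16 changed sign, all of them values not past the threshold, and over the 796 with those included 41 did. Of these 796 values, the only one past the threshold was Ctss for age in the cerebellum under quantile normalization, at 0.39 (limma adjusted p = 0.044). The values averaged over both regions, described below, are not among them. The number of genes called for genotype in the hippocampus, 0 in the report, was 2 under quantile normalization and under robust eBayes and 0 to 7 without single arrays. For age it was 7 in the cerebellum under quantile normalization and 4 with the region fitted alone. In the hippocampus it was 10 under quantile normalization, 3 with array medians subtracted, 9 with array weights, 4 with robust eBayes, 20 for a slope per month, 4 without the 3 samples with granule neuron markers and 0 to 7 without single arrays. For the region difference of the genotype effect it was 0 to 1 without single arrays. For the interaction of age and genotype in the hippocampus it was 3 under quantile normalization and 0 to 350 without single arrays, the highest without wild-type replicate 2, where 1 arm held a single array assumed to vary like the others. The replicate block changed none of these counts from 0. Signs changed with age in months as a term for genotype, where Ctsf was at 0.0029 in the cerebellum and Ctsb, Ctss and Ctsz at 0.026, 0.020 and 0.0084 in the hippocampus. They also changed for genotype in the hippocampus in Ctsc with the median over probe sets (-0.020), in Ctsb with array weights (0.012), and in Ctsb, Ctss and Ctsz without the 3 samples (0.015, 0.040 and 0.00056). For age they changed in Ctsa in the cerebellum under quantile normalization (0.0018), array weights (0.0087) and a slope per month (0.0074), and in Ctsk (-0.10) and Ctsl (-0.027) in the hippocampus without the 3 samples. Without the 2 cerebellum samples with high spike-ins, Ctsc was at -0.050 for genotype and -0.041 for age. The cause was not tested in any of these cases.

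Without single arrays, the genotype difference in the cerebellum ran from -0.099 to 0.095 for Ctsc and from -0.075 to 0.0017 for Ctsf. In the hippocampus it ran from -0.045 to 0.033 for Ctsb, from -0.015 to 0.059 for Ctsc, from -0.041 to 0.18 for Ctsd, from -0.15 to 0.24 for Ctsh, from -0.17 to 0.025 for Ctss and from -0.16 to 0.053 for Ctsz. The age difference in the cerebellum ran from -0.028 to 0.031 for Ctsa, from -0.0080 to 0.18 for Ctsc and from -0.012 to 0.076 for Ctsf, and in the hippocampus from -0.075 to 0.0010 for Ctsc, from -0.022 to 0.23 for Ctsk and from -0.0089 to 0.072 for Ctsl. The age differences of Ctss ran from 0.36 to 0.39 in the cerebellum and from 0.28 to 0.41 in the hippocampus, those of Ctsh from 0.32 to 0.44 and from 0.42 to 0.69. Signal over background was not analysed here, since the values are differences.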

Other observations

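As an alternative chosen after seeing the data, both regions of a genotype and replicate number were averaged, giving 8 values, and older samples were set against younger with genotype as a term. Whether such samples came from one animal is not stated. limma then called 2 of 18168 genes (0.011%), neither of them a cathepsin. Ctss differed by 0.36 (SE 0.05, limma adjusted p = 0.090) and had the 5th smallest p, and Ctsh differed by 0.47 (SE 0.07, limma adjusted p = 0.090) with the 12th smallest. Without single samples the limma adjusted p ran from 0.063 to 0.34 for Ctss and from 0.018 to 0.35 for Ctsh. Ctsd differed by 0.26 (SE 0.06), Ctsz by 0.23 (SE 0.07) and Ctsk by 0.17 (SE 0.06). Older and younger values did not overlap for Ctsb, Ctsd, Ctsh, Ctss and Ctsz, where 1.94% of all genes showed this with the older higher.

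Probe sets of one gene differed in some cases. For Ctsl in the hippocampus, 1 probe set lay at -0.19 for genotype with no overlap and the lower values in mutants, while the other lay at 0.02. For Ctsa in the cerebellum the probe sets lay at -0.15, with no overlap, and 0.03. For Ctsf in the hippocampus the interaction of age and genotype was 0.44 in one probe set and -0.12 in the other.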
